A study of Mus musculus with 9 samples.

Results

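Transcription factor genes of limb and connective tissue mesenchyme were followed across mouse embryonic fibroblasts (MEFs) that lack different pairs of H3K9 lysine methyltransferases (KMT). The 9 genes, out of 47937 in the count table, are Lmx1b, Prrx1, Prrx2, Shox2, Pitx1, Meis1, Meis2, Twist1 and Twist2, taken as the rows whose Ensembl identifiers carry these symbols. They were chosen by name with their values in these libraries already known, so that their levels and fold changes are given as a description and without p-values. Reads were recorded for 8 of them and all 8 passed the filter on low counts, whereas Pitx1 had no read in any library.

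Total RNA was sequenced from 3 WT, 3 S1S2 and 3 G9Gl libraries. S1S2 MEFs are deficient for Suv39h1 and Suv39h2, and G9Gl MEFs for G9a and Glp, which Ehmt2 and Ehmt1 encode. The study's methods describe WT as a clone of MEFs with a tamoxifen-inducible conditional Eset1 allele, which all 3 genotypes share. Each mutant is 1 clone made from that line with CRISPR/Cas9 and picked for absence of its target proteins on western blots, so genotype and clone cannot be told apart. The methods add that, after gene disruption, a tamoxifen-inducible Cre construct with puromycin resistance was put back, and the lines were kept in puromycin. The sample titles do not state a tamoxifen treatment. Ages of the embryos are not given in the labels. The replicates are labelled as separate samples, and the spread between them may be partly technical.

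The 9 genes encode factors that bind DNA and set the identity of mesenchymal cells. Lmx1b is the LIM homeodomain factor of dorsal limb mesenchyme, Prrx1 and Prrx2 are paired-related homeodomain factors of limb and facial mesenchyme, Shox2 acts in the proximal limb, and Pitx1 marks the hindlimb. Meis1 and Meis2 are homeodomain proteins of the TALE class that work with Pbx partners, and Meis genes mark the proximal limb bud. Twist1 and Twist2 are basic helix-loop-helix (bHLH) factors that dimerize with the E proteins Tcf3, Tcf4 and Tcf12, and Id proteins compete for the same partners.

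Libraries held between 21319778 and 32157623 gene counts, and the S1S2 libraries were the smallest. Levels are given as CPM, the read count scaled to library size and adjusted by TMM factors. The floor, 3 counts in a library, lay from 0.0923 to 0.141 CPM and covers counting error only. Of the targeted genes, Suv39h1 stood at 41.9 CPM in S1S2 against 108 in WT, Ehmt2 at 54.3 in G9Gl against 125, and Ehmt1 at 50.2 against 104, while Suv39h2 was at 55.2 CPM in S1S2 against 33.9 in WT. Transcripts of a disrupted gene can persist, so these values do not settle loss of the protein. All 10 fibroblast markers examined were detected in every genotype, with a summed level of 11300 to 12700 CPM in WT, 8660 to 8770 in S1S2 and 9080 to 9930 in G9Gl. Epithelial markers summed to between 2.45 and 3.29 CPM in WT, 24.5 and 28.5 in S1S2, and 10.2 and 15.8 in G9Gl, with Cldn3 at 0 in all 3 genotypes. Endothelial markers summed to between 0.123 and 0.193 CPM in WT, 1.55 and 1.75 in S1S2, and 0.79 and 2.35 in G9Gl. Neural markers summed to between 24.5 and 25.8, 38 and 42.1, and 17.7 and 25.5 CPM in the same order, with Olig2 at 0. Nearly all of the neural sum was Tubb3, at 24.2 to 25.7 CPM in WT, 37.6 to 42 in S1S2 and 17.5 to 25.4 in G9Gl. Tubb3 was called in no contrast. Kdr was called higher in S1S2, Cdh5 in G9Gl, Krt8 in S1S2 and Krt19 in both mutants. The muscle regulator Myod1 and the pluripotency genes Pou5f1 and Zfp42 were at 0. The third pluripotency gene examined, Nanog, was at 0.397 to 0.419 CPM in WT, 0 to 0.292 in S1S2 and 0.491 to 0.588 in G9Gl, and was called in no contrast. The muscle genes Myf5, Myog and Myh3 had at most 4 reads in a library. In bulk RNA, fewer cells that express a gene and less RNA per cell cannot be told apart.

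The promoter windows of the 3 genes that passed the calling limits in at least 1 mutant, Lmx1b, Prrx1 and Prrx2, are shown because these genes separated the mutants most. Each window covers the 250 bases before the RefSeq start on build GRCm38.p6, read 5′ to 3′ on the strand of the gene, with CG dinucleotides in capitals. The Lmx1b window lies at chr2:33641099-33641348 on the minus strand, upstream of the span that GENCODE M21 gives the gene. The Prrx1 window, at chr1:163313651-163313900 on the minus strand, reaches into the 5′ end of its GENCODE span, and the Prrx2 window, at chr2:30845117-30845366 on the plus strand, lies inside the span.
Lmx1b: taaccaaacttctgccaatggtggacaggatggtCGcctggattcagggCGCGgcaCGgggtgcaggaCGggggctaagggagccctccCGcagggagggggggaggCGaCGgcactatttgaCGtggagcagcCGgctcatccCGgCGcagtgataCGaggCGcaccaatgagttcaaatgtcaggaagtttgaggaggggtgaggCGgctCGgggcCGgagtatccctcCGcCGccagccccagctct
Prrx1: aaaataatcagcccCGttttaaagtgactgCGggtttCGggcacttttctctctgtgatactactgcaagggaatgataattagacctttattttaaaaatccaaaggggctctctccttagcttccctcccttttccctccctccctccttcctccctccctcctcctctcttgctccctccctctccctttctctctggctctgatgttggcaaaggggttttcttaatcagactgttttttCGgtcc
Prrx2: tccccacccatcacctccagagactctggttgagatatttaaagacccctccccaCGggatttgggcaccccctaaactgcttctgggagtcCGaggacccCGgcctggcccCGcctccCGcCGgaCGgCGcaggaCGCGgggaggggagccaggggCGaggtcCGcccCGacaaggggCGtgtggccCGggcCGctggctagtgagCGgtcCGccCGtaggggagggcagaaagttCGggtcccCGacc

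The windows differed in CG content. Prrx2 held 21 CG dinucleotides and Lmx1b 19, more than 83.7% and 80.3% of the 32851 RefSeq promoter windows of the same length, whose median was 6. Prrx1 held 4, more than 37.8% of windows. Across the 8 genes with a RefSeq window the number ranged from 4 in Prrx1 to 23 in Twist2, with 7 in Meis2, 11 in Shox2, 13 in Meis1 and 18 in Twist1. Each window was also searched on both strands for 4 motifs, and no window held more than 1 of them. The E-box CANNTG, the type of site bound by Twist dimers, was found once in Lmx1b and once in Meis1, and occurs in 66.2% of all windows. The homeodomain site TAATTA was found in Prrx1 alone and occurs in 4.84% of all windows. The MEIS-type site TGACAG was found in Twist2 alone and occurs in 15.9%. The TATA box TATAAA was found in Shox2, Meis2 and Twist1 and occurs in 12.4%. A match describes these letters and is not evidence of binding.

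Lmx1b was the one gene of the 9 called lower in both mutants. The gene (ENSMUSG00000038765) lies on chromosome 2 between 33560965 and 33640511 on the minus strand. Its level was 10.6, 11.8 and 9.06 CPM in the WT libraries and 3.13, 4.08 and 3.48 CPM in S1S2, from 345, 356 and 281 reads in WT and 68, 112 and 74 in S1S2. Every S1S2 library was below every WT library. In G9Gl, no Lmx1b read was counted in any of the 3 libraries, which allows at most between 0.0979 and 0.108 CPM per library. The S1S2 level was 2.92-fold lower than WT (log2 fold change -1.54 ± 0.155, SE, n = 3 per genotype). Set against the floor of 3 counts per library, the G9Gl level was at least 101-fold lower than WT and at least 34.4-fold lower than S1S2. No other gene of the 9 with reads in WT was undetected in a mutant.

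Lmx1a, the closest relative of Lmx1b, gave too few reads to be tested, with a mean of 0.0278 CPM in S1S2 and 0 in WT and G9Gl. Ldb1, the cofactor through which LIM homeodomain proteins assemble complexes, was detected in all libraries at 76.2 ± 2.45 CPM in WT, 78.3 ± 2.3 in S1S2 and 61.9 ± 0.852 in G9Gl (SD, n = 3). Its log2 fold change in G9Gl was -0.30 ± 0.029 (edgeR adjusted p = 3.08e-05), below the 2-fold limit used for a call.

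The paired-related genes separated the mutants in opposite ways. Prrx1 (ENSMUSG00000026586), on chromosome 1 between 163245119 and 163313710 on the minus strand, was measured at 104, 104 and 106 CPM in WT and at 17.5, 19.9 and 20.2 CPM in S1S2. In G9Gl it was at 104, 103 and 94.5 CPM. The S1S2 libraries stood well below all others, whereas the G9Gl and WT libraries overlapped. Prrx1 was thus 5.43-fold lower in S1S2 than in WT (log2 fold change -2.44 ± 0.068), its log2 fold change in G9Gl was -0.06 ± 0.046, and it was 5.23-fold higher in G9Gl than in S1S2. The median log2 fold change of the tested genes of chromosome 1 was -0.13 in S1S2 and -0.26 in G9Gl.

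Prrx2 (ENSMUSG00000039476), on chromosome 2 between 30834972 and 30881251 on the plus strand, had the reverse pattern. It was measured at 18.2, 17.4 and 17.1 CPM in WT, at 18.6, 19.3 and 17.6 CPM in S1S2 and at 7.09, 6.64 and 6.4 CPM in G9Gl. WT and S1S2 libraries overlapped, and all G9Gl libraries lay below both. Prrx2 was 2.62-fold lower in G9Gl than in WT (log2 fold change -1.39 ± 0.05) and 2.76-fold lower than in S1S2, with a log2 fold change of 0.08 ± 0.047 in S1S2.

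The balance of these paralogs differed between the genotypes. Per kilobase of the longest annotated transcript, the ratio of Prrx1 to Prrx2 levels was 1.32 ± 0.0514 in WT, 0.23 ± 0.0234 in S1S2 and 3.31 ± 0.0886 in G9Gl (SD, n = 3). The 3 ranges did not overlap, running from 1.26 to 1.37 in WT, from 0.207 to 0.254 in S1S2 and from 3.25 to 3.41 in G9Gl. Prrx1 was the more abundant paralog in WT and G9Gl, and Prrx2 in S1S2. Per kilobase of all annotated exons this order held, but Prrx1 and Prrx2 lay closer in WT, at 9.44 ± 0.103 and 8.95 ± 0.279 CPM.

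**Figure D1:**
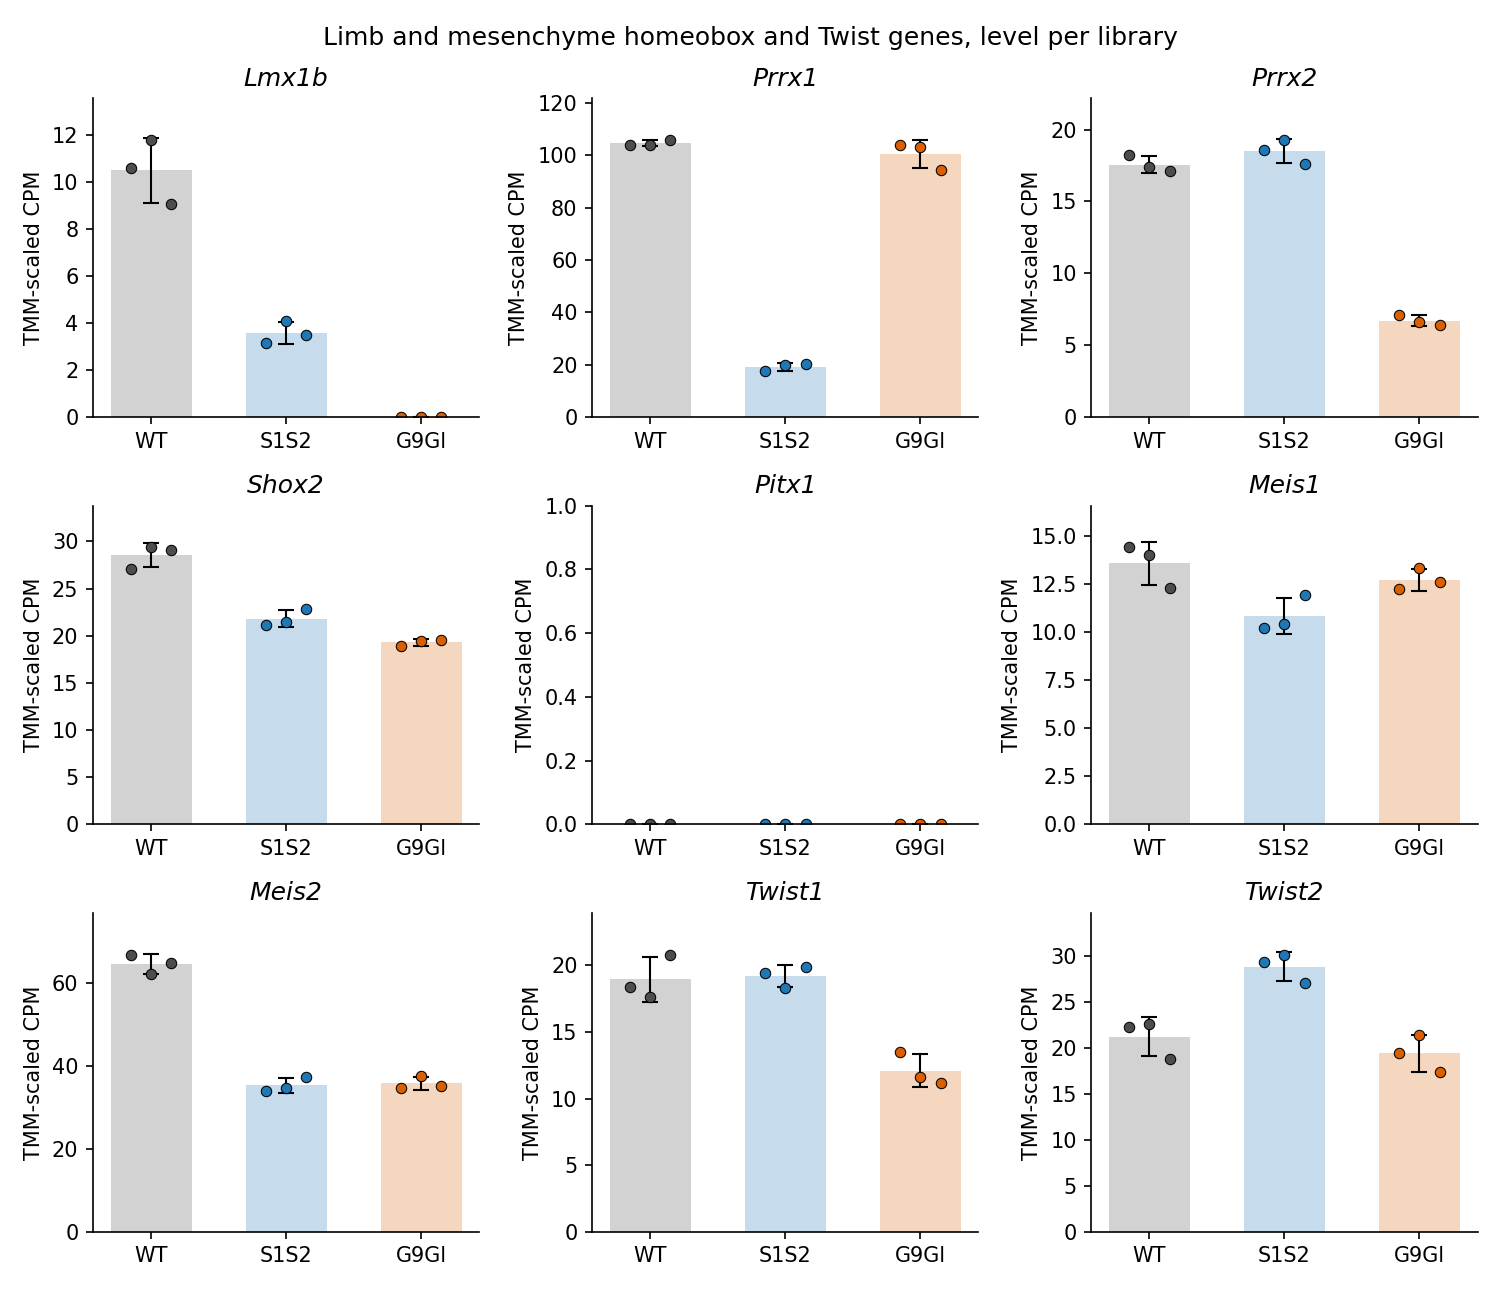
Level of each of the 9 genes in TMM-scaled CPM (vertical axis, each panel with its own scale from 0) in the WT, S1S2 and G9Gl libraries. Points are libraries, bars are means and error bars are SD of 3 libraries. Lmx1b is at 0 in G9Gl, Prrx1 is low in S1S2 alone, Prrx2 is low in G9Gl alone, and Pitx1 is at 0 throughout.

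Transcripts annotated inside Prrx1 were measured in the same libraries and are described here without p-values. Gm26523, a lincRNA, and Gm37644, a transcript of the unclassified type TEC, lie in Prrx1 introns on the strand of the gene and share no exon with it. Gm37644 was measured at 5.08, 5.19 and 5.19 CPM in WT, 0.965, 0.984 and 0.752 in S1S2, and 4.6, 4.74 and 4.24 in G9Gl. Gm26523 was measured at 2.12, 1.29 and 1.97 CPM in WT, 0.552, 0.364 and 0.282 in S1S2, and 1.47, 1.29 and 1.47 in G9Gl. In both, all S1S2 libraries lay below all WT and G9Gl libraries. Gm37644 was 5.66-fold lower in S1S2 than in WT (log2 fold change -2.50 ± 0.116) and Gm26523 was 4.48-fold lower (log2 fold change -2.16 ± 0.321), and both were called. Neither was called in G9Gl against WT, with log2 fold changes of -0.19 ± 0.048 and -0.35 ± 0.222. Libraries of total RNA hold unspliced RNA, so that these reads cannot be told apart from intronic reads of Prrx1 itself. The antisense transcript Gm20471 had at most 6 reads in a library.

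**Figure D2:**
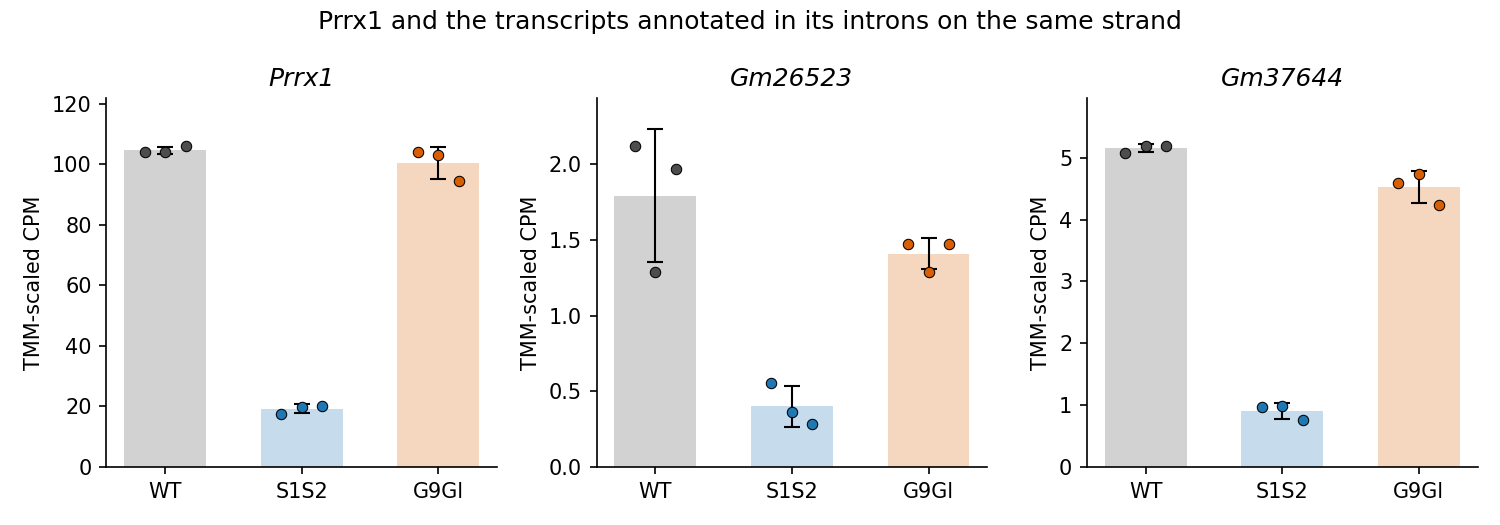
Level of Prrx1 and of the intronic transcripts Gm26523 and Gm37644 in TMM-scaled CPM (vertical axis, each panel with its own scale from 0) by genotype. Points are libraries, bars are means and error bars are SD of 3 libraries. All 3 transcripts have their lowest libraries in S1S2.

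Shox2 stood lower in both mutants by less than the 2-fold limit. The gene (ENSMUSG00000027833) lies on chromosome 3 between 66971727 and 66981771 on the minus strand. It was measured at 27.1, 29.4 and 29.1 CPM in WT, at 21.1, 21.5 and 22.8 CPM in S1S2 and at 18.9, 19.4 and 19.6 CPM in G9Gl. The 3 genotypes did not overlap. The log2 fold change was -0.39 ± 0.05 in S1S2 and -0.56 ± 0.04 in G9Gl, and -0.18 ± 0.037 between G9Gl and S1S2. Shox2 overlaps exons of Rsrc1 on the other strand, and 2.39% of its 75-base stretches occur in that gene. Rsrc1 gave log2 fold changes of -0.04 ± 0.029 in S1S2 (edgeR adjusted p = 0.498) and -0.12 ± 0.05 in G9Gl (adjusted p = 0.0656).

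Pitx1 (ENSMUSG00000021506), on chromosome 13 between 55825051 and 55836192, had 0 reads in all 9 libraries, which allows at most between 0.0923 and 0.141 CPM. The MEFs of all 3 genotypes thus held reads of Shox2 and of both Prrx genes but none of the hindlimb factor.

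The Meis genes differed in how far they departed from WT. Meis2 (ENSMUSG00000027210), on chromosome 2 between 115863064 and 116065839 on the minus strand, was measured at 66.9, 62.2 and 64.9 CPM in WT, at 34.1, 34.6 and 37.3 CPM in S1S2 and at 34.7, 37.6 and 35.3 CPM in G9Gl. All mutant libraries were below all WT libraries, and the mutants overlapped. Its log2 fold change was -0.87 ± 0.05 in S1S2 and -0.85 ± 0.047 in G9Gl, short of the 2-fold limit in both contrasts, which use the same WT libraries. The log2 difference between the mutants was 0.02 ± 0.053.

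Meis1 (ENSMUSG00000020160), on chromosome 11 between 18879817 and 19018985 on the minus strand, was measured at 14.4, 14.0 and 12.3 CPM in WT, at 10.2, 10.4 and 11.9 CPM in S1S2 and at 12.2, 13.3 and 12.6 CPM in G9Gl. S1S2 libraries lay below the others, and WT and G9Gl overlapped. The log2 fold changes were -0.33 ± 0.096 and -0.10 ± 0.077, respectively, and 0.24 ± 0.078 between G9Gl and S1S2. Annotated transcripts that overlap its exons hold 16.1% of the 75-base stretches of Meis1, so that some reads could be assigned to either. Per kilobase of the longest annotated transcript, the ratio of Meis2 to Meis1 was 6.58 ± 0.575 in WT, 4.5 ± 0.155 in S1S2 and 3.88 ± 0.0253 in G9Gl. Its size depends on the length used. Per kilobase of all annotated exons, Meis2 and Meis1 were at 5.37 and 1.29 CPM in WT, 2.93 and 1.03 in S1S2, and 2.98 and 1.21 in G9Gl. Meis2 was the more abundant Meis gene in every library.

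Among the partners of the Meis proteins, Pbx2 and Pbx3 gave log2 fold changes between -0.34 and -0.04. Meis3, the third Meis gene, was the single member of its family that rose past the limits, with 18 ± 1.22 CPM in S1S2 beside 8.72 ± 0.388 in WT, a rise of 2.07-fold (edgeR adjusted p = 1.53e-08). Its log2 fold change in G9Gl was 0.47 ± 0.052 (adjusted p = 0.000191).

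The Twist genes were detected in every library and were called in no contrast. Twist1 (ENSMUSG00000035799), on chromosome 12 between 33957671 and 33959829 on the plus strand, was measured at 18.4, 17.6 and 20.8 CPM in WT, at 19.4, 18.3 and 19.9 CPM in S1S2 and at 13.5, 11.6 and 11.2 CPM in G9Gl. WT and S1S2 overlapped, and G9Gl libraries were below both. The log2 fold change was -0.65 ± 0.112 in G9Gl against WT and -0.67 ± 0.093 against S1S2. In S1S2 it was 0.02 ± 0.081, a value whose sign changed to -0.006 without the composition factor.

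Twist2 (ENSMUSG00000007805), on chromosome 1 between 91801461 and 91848028 on the plus strand, was measured at 22.2, 22.6 and 18.8 CPM in WT, at 29.3, 30.1 and 27.0 CPM in S1S2 and at 19.4, 21.4 and 17.4 CPM in G9Gl. It was the one gene of the 9 with all S1S2 libraries above all WT libraries. The log2 fold change was 0.45 ± 0.096 in S1S2, -0.13 ± 0.12 in G9Gl and -0.58 ± 0.098 between G9Gl and S1S2. The antisense gene Gm29100 covers Twist2 exons and holds 45.3% of its 75-base stretches. Gm29100 was at 2.09 ± 0.271 CPM in WT, 2.13 ± 0.211 in S1S2 and 1.88 ± 0.426 in G9Gl, and it was called in no contrast. Whether counting used strand was not stated, so Twist2 values are less certain than those of Twist1. The ratio of Twist2 to Twist1 per kilobase of the longest annotated transcript was 0.73 ± 0.13 in WT, 0.969 ± 0.0933 in S1S2 and 1.04 ± 0.137 in G9Gl. Per kilobase of all annotated exons, Twist2 was below Twist1 in each genotype, at 6.11 against 7.43 CPM in G9Gl.

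The E proteins that pair with Twist were abundant and were not called. Tcf12 was at 263 ± 20.1 CPM in WT, Tcf4 at 169 ± 11.3 and Tcf3 at 125 ± 5.75 (SD, n = 3), and their log2 fold changes lay between -0.45 and -0.30 in S1S2 and between -0.13 and -0.01 in G9Gl. Among the Id inhibitors, Id3 fell 2.04-fold in G9Gl, from 22.7 ± 0.939 to 11.1 ± 2.45 CPM (edgeR adjusted p = 9.84e-07), and its log2 fold change in S1S2 was 0.03 ± 0.1. Id1 gave log2 fold changes of 0.49 ± 0.117 in S1S2 and -0.40 ± 0.174 in G9Gl (adjusted p = 0.00379 and 0.0218), Id2 gave 0.25 and -0.28, and Id4 was too low to test. Snai1, Snai2, Zeb1 and Zeb2, which act beside Twist in mesenchymal cells, had 0 calls of 4 in each contrast by edgeR and by DESeq2, with 3, 3 and 4 of them at an unadjusted p under 0.05 in S1S2 and in G9Gl relative to WT and between the mutants, respectively.

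**Figure D3:**
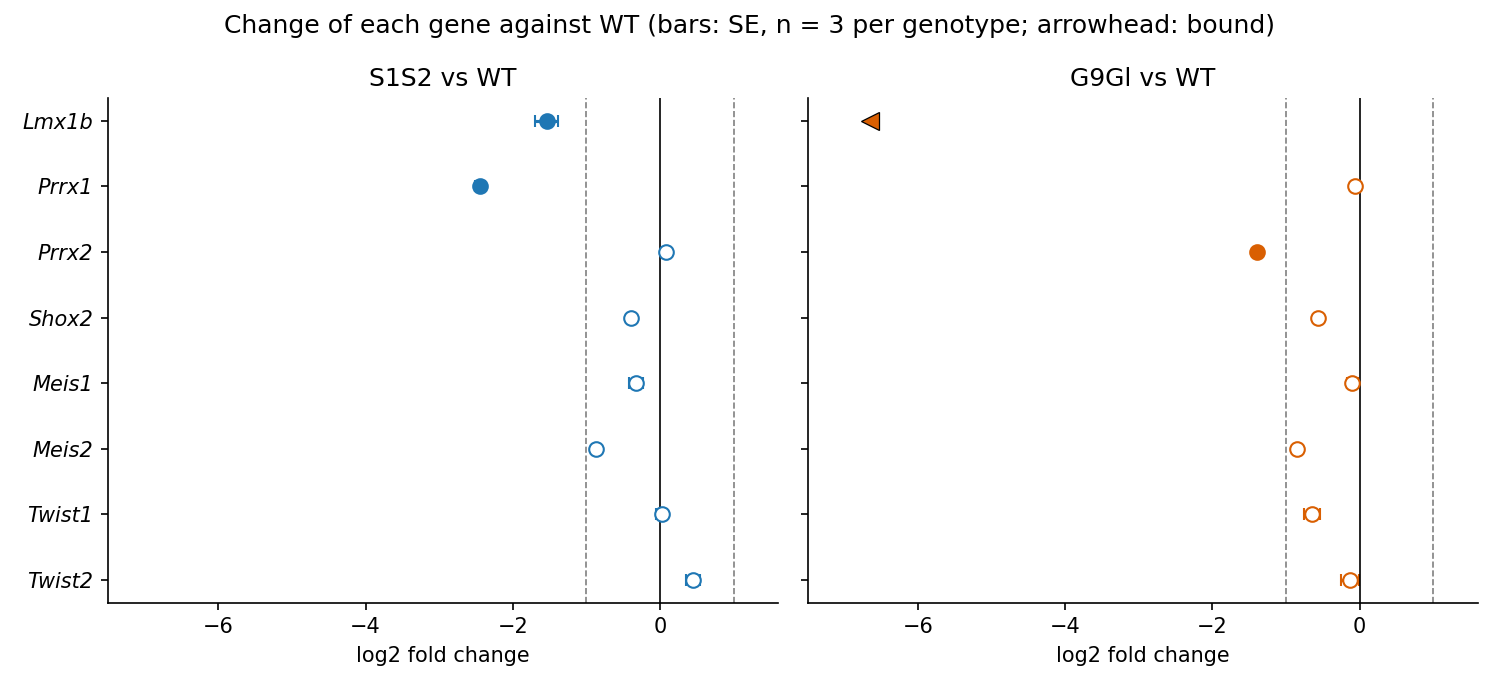
Log2 fold change against WT (horizontal axis) of the 8 tested genes in S1S2 (left) and G9Gl (right). Points are fitted values with SE bars (n = 3 per genotype), filled where the gene was called, the arrowhead is the bound for Lmx1b in G9Gl, where no read was counted, and dashed lines mark 2-fold. Lmx1b is called in both panels, Prrx1 in S1S2 alone and Prrx2 in G9Gl alone.

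Over the set, 2 of the 8 tested genes (Lmx1b and Prrx1) met both calling limits (edgeR adjusted p up to 0.01, change of 2-fold or more) in S1S2 against WT, both lower, beside 9.0% of all 15540 tested genes called in either direction and 4.34% called lower. In G9Gl against WT, 2 of 8 (Lmx1b and Prrx2) passed, both lower, beside 10.2% and 3.40% of all tested genes. Between G9Gl and S1S2, 3 of 8 passed, Lmx1b and Prrx2 lower and Prrx1 higher in G9Gl, beside 13.1%. Nothing is read from these counts, since the genes were selected with the same contrasts known. The libraries of the compared genotypes did not overlap for 6, 5 and 7 of the 8 genes in these contrasts, in the same order, and for 56.0%, 52.8% and 60.8% of all tested genes, so that most of the tested genes separated the genotypes in this sense. The median log2 fold change of the 8 genes was -0.36, -0.61 and -0.38, beside -0.003, -0.007 and 0 over all tested genes. Closest to the 2-fold limit were Meis2 (-0.87 and -0.85) on the side that was not called and Prrx2 (-1.39 in G9Gl) on the side that was. Of 10 fibroblast markers, 5 were called lower in S1S2 (Col1a2, Col3a1, Pdgfra, Pdgfrb and Thy1), and in G9Gl Pdgfra and Pdgfrb were called lower and Thy1 higher. The part of these, of the epithelial and endothelial marker differences and of the Tubb3 levels in the values of the 9 genes was not tested.

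Levels of the 9 genes were compared with each other per kilobase of the longest annotated transcript. In WT, Prrx1 was highest at 16 CPM per kilobase and its libraries stood apart from those of the next gene. Prrx2 at 12.2, Meis2 at 11.8 and Twist1 at 11.6 followed, and libraries of neighbors in this order overlapped. Shox2 at 9.26 and Twist2 at 8.39 came next and overlapped, and Lmx1b at 2.19 and Meis1 at 1.8 were low and overlapped. In S1S2, Prrx2 at 12.8, Twist1 at 11.8 and Twist2 at 11.4 CPM per kilobase overlapped at the top, and Prrx1 at 2.94 stood between Meis2 at 6.43 and Meis1 at 1.43. In G9Gl, Prrx1 at 15.4 CPM per kilobase was followed by Twist2 at 7.68 and Twist1 at 7.43, which overlapped, and Prrx2 at 4.66 stood between Shox2 at 6.26 and Meis1 at 1.68. The order depends on the transcript length used. Per kilobase of all annotated exons, which sum to 11066 bases in Prrx1 against 6527 in its longest transcript, Twist1 led in WT and S1S2 at 11.6 and 11.8 CPM.

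The expressed genes whose log2 CPM most resembled each of the 8 over the 9 libraries were listed by Pearson correlation among 11288 protein-coding genes, as a description of libraries that form 3 groups of 3. For Lmx1b these were Ehmt1 (r = 0.998), which is one of the genes targeted in G9Gl, and Eya4 (r = 0.997), at 51.8 CPM in WT, 15.1 in S1S2 and 0.335 in G9Gl. For Prrx1 they were Pnma2 (r = 0.998) and Mmp16 (r = 0.997), the latter at 3.21 CPM in WT, 0.0121 in S1S2 and 3.09 in G9Gl. For Prrx2 they were Cygb and Sfrp2 (r = 0.996 each), and Sfrp2, a secreted Wnt pathway modulator, was at 5.83, 8.46 and 0 CPM in the same order. Meis2 was followed most closely by Sc5d (r = 0.994) and Miga1 (r = 0.993), Twist1 by Zfp808 (r = 0.988) and Acap2 (r = 0.984), Twist2 by Klhdc4 (r = 0.99) and Ppard (r = 0.979), Shox2 by Svil (r = 0.986) and Nfatc4 (r = 0.984), and Meis1 by Phf12 (r = 0.973) and Bhlhe41 (r = 0.953).

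The tested protein-coding genes flanking the 9, at most 2 on each side and 36 in all, were mostly within 2-fold of WT. In S1S2 against WT 2 of 36 (5.56%) were called beside 9.0% of all tested genes, in G9Gl against WT 3 of 36 (8.33%) beside 10.2%, and between the mutants 6 of 36 (16.7%) beside 13.1%. None of the 4 neighbors of Lmx1b (Zbtb34, Zbtb43, Mvb12b and Pbx3), Prrx1 (Vamp4, Prrc2c, Gorab and Kifap3) or Prrx2 (Ntmt1, Asb6, Tor1b and Tor1a) was called against WT. Their log2 fold changes lay between -0.44 (Gorab) and 0.34 (Mvb12b) in S1S2 and between -0.42 (Vamp4) and 0.16 (Ntmt1) in G9Gl. The neighbors called against WT lay beside Shox2 and Pitx1. On the side of Pitx1, the chemokine gene Cxcl14 fell 8.67-fold in S1S2 (log2 fold change -3.12 ± 0.117, edgeR adjusted p = 7.17e-12) and 2.72-fold in G9Gl (-1.45 ± 0.107, adjusted p = 6.66e-09). Beside Shox2, Mlf1 rose 13.1-fold in S1S2 (3.71 ± 0.268, adjusted p = 9.41e-09), and in G9Gl Ptx3 fell 4.29-fold (-2.10 ± 0.128, adjusted p = 2.44e-13) and Veph1, at 0.415 ± 0.0776 CPM in WT and 0.932 ± 0.0169 in G9Gl, rose 2.23-fold (1.16 ± 0.138, adjusted p = 0.00455). Veph1 was not called by DESeq2 (adjusted p = 0.03), nor by edgeR without WT replicate 1 or 2 or without any 1 of the G9Gl libraries (adjusted p from 0.0152 to 0.0269). Between the mutants, Ahr beside Twist1 and C1d beside Meis1 were called as well as these 4 genes, and both were within 2-fold of WT in each mutant.

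**Figure D4:**
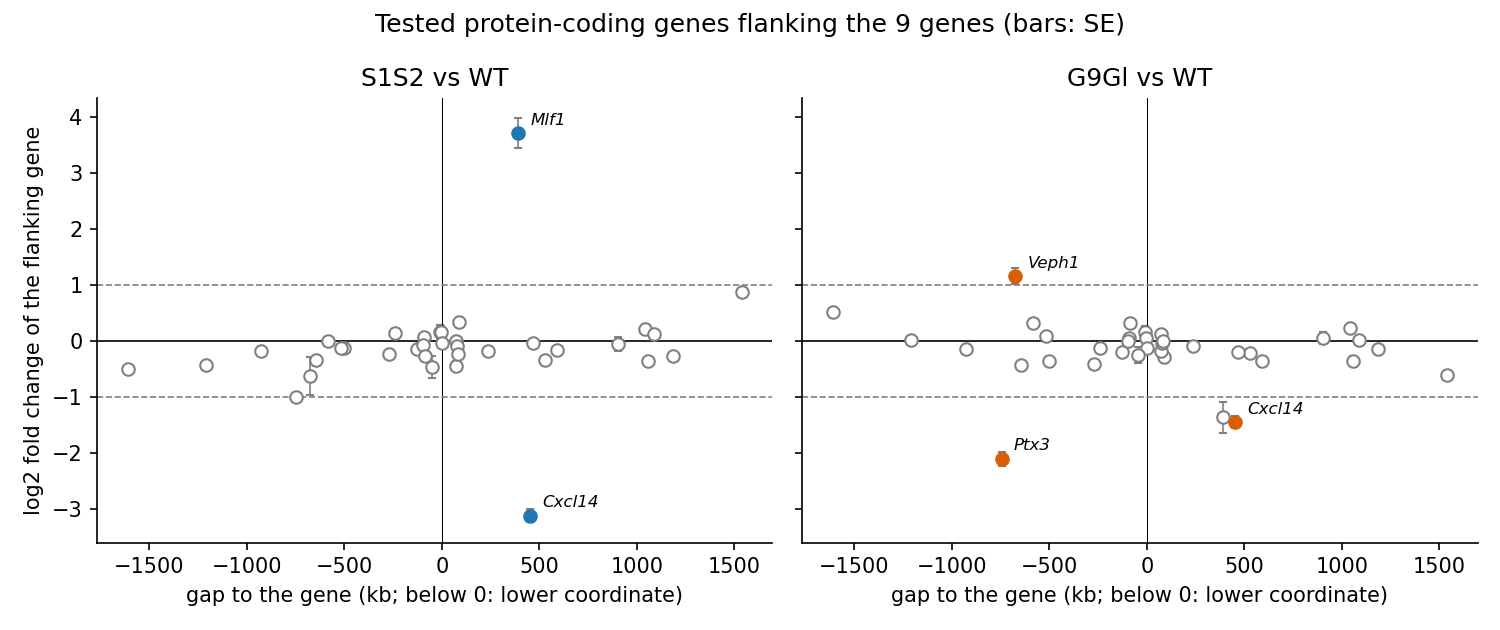
Log2 fold change against WT (vertical axis, SE bars) of the 36 flanking genes by their gap to the nearest end of the gene they flank (horizontal axis, kb, negative at lower coordinates), in S1S2 (left) and G9Gl (right). Filled points were called and are named, and dashed lines mark 2-fold. Most flanking genes lie within 2-fold of WT at every distance.

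Related genes of the same pathways were examined as 6 lists, which hold 127 genes of which 78 were tested. In S1S2, 15 of 78 (19.2%) were called, 7 higher and 8 lower. In G9Gl, 16 of 78 (20.5%) were called, 5 higher and 11 lower, and 10 genes were called in both mutants, which share their WT libraries. The median log2 fold change of the related genes was -0.01 and -0.12. These shares exceed the 9.0% and 10.2% of all tested genes, but the lists were drawn up with results of these data known and no test was made of the difference.

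Among other TALE homeobox genes, 3 of 13 were called in S1S2 and 2 of 13 in G9Gl. Irx1, a homeobox gene of the Iroquois family, fell in both. Its 11.9 ± 0.808 CPM of WT compared with 2.68 ± 0.718 in S1S2 (log2 fold change -2.17 ± 0.239, edgeR adjusted p = 3.33e-09) and with 0.96 ± 0.155 in G9Gl (-3.63 ± 0.142, adjusted p = 1.58e-11). Irx3 fell 4.93-fold in S1S2 (adjusted p = 3.57e-06) and rose 2.24-fold in G9Gl (adjusted p = 4.38e-05). Of the bHLH list, Tcf24 rose 2.29-fold in S1S2 (adjusted p = 3.1e-06) and fell 3.87-fold in G9Gl (adjusted p = 2.93e-07), beside Id3 above, making 1 of 8 and 2 of 8 called.

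Of 10 LIM homeobox genes and cofactors, 2 were called in each mutant, Isl1 and Lhx9, the latter named after its values were seen. Isl1, which acts in the early hindlimb field, had 15, 13 and 17 reads in WT, none in S1S2 and 202, 210 and 210 in G9Gl. It was thus at least 3.71-fold lower in S1S2 and 14.8-fold higher in G9Gl (adjusted p = 9.58e-11). Lhx9 fell in both mutants, 2.28-fold in S1S2 and 8.08-fold in G9Gl (adjusted p = 0.000541 and 1.61e-07). Of 15 other limb and mesenchyme homeobox genes, 2 were called in S1S2 and 4 in G9Gl. Alx1, a paired-type gene of facial mesenchyme, is a further gene with no read in S1S2, with 12, 10 and 12 reads in WT, 0 in S1S2 and 121, 109 and 124 in G9Gl. It was at least 2.8-fold lower and 11.1-fold higher than WT, respectively. Dlx2 and Otx1 fell in G9Gl, by 2.6-fold and 2.09-fold (adjusted p = 0.000823 and 3.23e-05).

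Limb bud genes without a homeobox had 7 of 28 called in S1S2 and 6 of 28 in G9Gl. The hedgehog effectors Gli1 and Gli2 fell in S1S2, 3.81-fold and 3.54-fold (edgeR adjusted p = 1.08e-07 and 5.57e-10). In G9Gl, Gli1 fell 2.33-fold (adjusted p = 5.86e-06) and Gli2 gave a log2 fold change of 0.14 ± 0.07 (adjusted p = 0.221), with levels of 19.4, 5.46 and 21.4 CPM in WT, S1S2 and G9Gl. Osr1, a zinc finger gene of limb connective tissue, was at 23, 22.6 and 5.69 CPM in the same order, and fell 4.03-fold in G9Gl (adjusted p = 5.8e-12). The Notch ligand gene Jag2 rose 2.8-fold in S1S2 (adjusted p = 3.4e-07) and fell 2.79-fold in G9Gl (adjusted p = 8.8e-06), and Spry1, an inhibitor of FGF signaling, rose in G9Gl 2.36-fold (adjusted p = 2.06e-06) and in S1S2 2.51-fold (adjusted p = 1.18e-06).

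**Figure D5:**
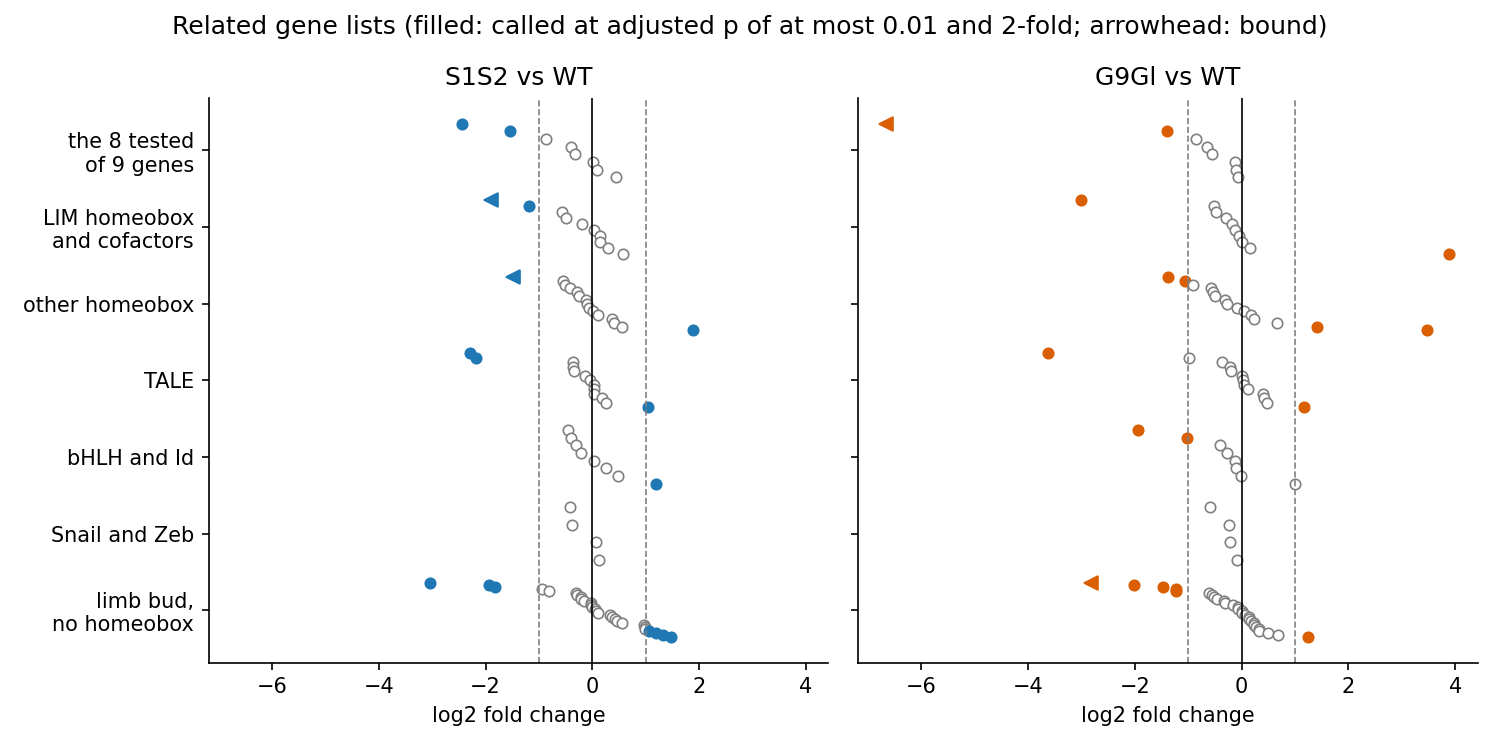
Log2 fold change against WT (horizontal axis) of the 8 tested genes and of the 78 tested related genes by list (vertical axis, spread within a list for visibility) in S1S2 (left) and G9Gl (right). Filled symbols were called, arrowheads are bounds for genes with no read in 1 of the genotypes, and dashed lines mark 2-fold. Called related genes lie on both sides of 0 in each mutant. The 2 called genes of the 8 lie below 0 in each mutant, in a set chosen with these contrasts known.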

How the data were processed

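Total RNA of MEFs was sequenced from 9 libraries, 3 per genotype. Per the study's methods, assumed to cover these libraries, the authors used a stranded total RNA kit with 75 bp paired ends. Reads were trimmed with cutadapt and aligned to GRCm38 by STAR 2.5.2b. The methods name TEtranscripts for counting genes and repeats, and also snakePipes count matrices for plots of gene expression levels. Which of these gave the deposited counts is not stated in the sources used here. TEtranscripts can share multiply aligned reads among similar genes. The deposited values are raw counts per Ensembl gene, not normalized. The annotation release and strand setting are not given in the sources used here. Identifiers of 47310 of 47937 genes were matched to GENCODE M21, and 627 were not.

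Genotypes were compared in R 4.3.3 with the quasi-likelihood test of edgeR 4.0.16 (TMM, filterByExpr, 15540 genes tested, 1 fit of all 9 libraries) and Benjamini-Hochberg adjustment over all tested genes. Calls required an adjusted p up to 0.01 and a change of 2-fold or more. Levels are TMM-scaled CPM, as mean ± SD of 3 libraries. The SE of a log2 fold change comes from the spread of log2 CPM (prior count 2) between libraries. A gene at 0 counts in a genotype was set against a floor of 3 counts per library. The script was tested on simulated data. DESeq2 1.42.0 and other settings served as alternatives.

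The 9 genes and all lists were chosen with earlier results of these data known. Named related genes are the 3 largest called changes per list and mutant with a mean of at least 1 CPM, together with the Pbx, E protein, Id, Ldb1 and Lmx1a partners, called flanking genes, and the 2 best correlated genes per member. Promoters came from RefSeq (GRCm38.p6), which held 8 of the 9 genes. Some genes of the related lists entered the fits and the counts but are not reported individually here.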

Additional observations from a re-analysis of the deposited data

Results flagged for a closer look

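Of the 86 tested genes among the 9 and the related lists, 5 were called against WT in both mutants in opposite directions, and were also called between the mutants. None of them is one of the 9 genes. With glmTreat against 2-fold, Jag2 was called against WT in neither mutant (adjusted p = 0.0114 in S1S2 and 0.0492 in G9Gl). By the same test, Tcf24 was not called in S1S2 (adjusted p = 0.429), nor Irx3 in G9Gl (0.731). Isl1, Alx1 and Irx3 were not tested with at least 10 counts in every library. The log2 fold change of G9Gl against S1S2 was 3.46 for Irx3, -3.14 for Tcf24 and -2.96 for Jag2 (edgeR adjusted p = 3.52e-09, 1.44e-10 and 2.47e-10). Isl1 and Alx1 gave fitted values of 10.64 and 9.83, which depend on the prior count because no S1S2 library held a read, and their levels in G9Gl were at least 55.3-fold and 31.4-fold higher than in S1S2. Groups of 3 libraries were not examined for single libraries that stand apart.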

How the results depend on the processing

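The counts of called genes kept within 1.5 times of those reported under DESeq2, under edgeR with DESeq2 size factors, without the composition factor, without a filter on low counts, with a fit of only the libraries compared and with any 1 library left out, for the 9 genes, the related genes and the flanking genes in the 3 contrasts. With at least 10 counts in every library, which removes Lmx1b because G9Gl holds no read, 1 of the 9 genes was called in each mutant against WT, and 9 related and 1 flanking genes were called in S1S2 against WT. With an adjusted p of at most 0.05 and no fold limit, 6, 5 and 7 of the 9 genes, 50, 50 and 58 related genes and 20, 19 and 18 flanking genes were called in S1S2 and G9Gl relative to WT and between the mutants. With glmTreat against 2-fold, 7, 7 and 8 related genes were called in the same order, and 3 flanking genes between the mutants. Of the related genes named above, Otx1 in G9Gl against WT was not called without WT replicate 2 or G9Gl replicate 3 (log2 fold change -0.92 and -0.97), nor Id3 without WT replicate 2 or G9Gl replicate 1 (-0.89 without the latter). Of 357 values of single genes of the 9 under an alternative, 340 kept direction and side of the limits, and 6 changed sign. The other 11 passed only under the setting with an adjusted p of at most 0.05 and no fold limit. The sign changes concern values near 0, namely Twist1 in S1S2 against WT (-0.006 without the composition factor, and between -0.029 and 0.09 with 1 library left out) and Meis2 between the mutants (between -0.013 and 0.06 with 1 library left out). The labels give replicate numbers, but same-numbered libraries correlated between -0.0686 and 0.124 in their deviations from the genotype means and 3 of 9 libraries correlated best with their own number, so they were not treated as pairs. With the replicate block, 2, 2 and 3 of the 9 genes were called, as without it, and 1383, 1568 and 2022 of all tested genes. Depth limits statements on Pitx1 and on Lmx1b in G9Gl to the stated floors.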
